A study of Mus musculus with 24 samples.

Results

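The 9 genes described here lie in, or belong to copies of, a duplicated stretch of mouse chromosome 4 that holds the Ccl21, Ccl27, Ccl19 and Il11ra genes. They are Ccl21a, Ccl21b, Ccl27a, Ccl19, Il11ra1, Gm29804, LOC100041599, LOC100041593 and LOC101056144, and they are 9 of the 19015 genes in the deposited table. They were chosen by their symbols with the differences between knockout and wildtype libraries of these same samples already known. Their knockout against wildtype values are therefore given as a description, without a test, and no p-value is attached to them. The groups were female mice aged 12 weeks that were Prxl2a knockout (KO) or wildtype (WT), with 3 mice of each genotype, all perfused with PBS before the tissues were frozen. The tissues were liver, brain, the inguinal fat (inguinal adipose tissue, IAT) and the brown fat of the back (BAT), with 3 KO and 3 WT libraries each, which makes 24 RNA-seq libraries in 8 groups. The sources used here do not give the strain or how the Prxl2a allele was made.

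CCL21 and CCL19 are chemokines that draw lymphocytes and dendritic cells into lymph nodes through the receptor CCR7. In mice, the gene Ccl21a encodes a form with a serine and is expressed mainly by stroma and high endothelial venules of lymphoid organs, while the Ccl21b and Ccl21c type of copy encodes a form with a leucine that is known from peripheral lymphatic vessels. CCL27 is a chemokine of the skin that acts through CCR10, and Ccl27a overlaps the neighbouring gene Il11ra1, which encodes the interleukin 11 receptor that signals through gp130. The reference genome carries several near-identical copies of this block on chromosome 4, so a short read from one copy can often be placed on another.

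How alike the copies are is shown first, because it limits how the value of a single copy can be read. The coding sequences of Ccl21a and Ccl21b in the GENCODE M21 transcripts (GRCm38) matched at 400 of 402 bases. The windows around both differing bases are shown, with the differing base in capitals and positions counted from the first coding base. The differences are T84A and C194T, the Ccl21a base first.
Ccl21a, coding bases 54 to 114: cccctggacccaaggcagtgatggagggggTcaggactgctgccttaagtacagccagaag
Ccl21b, coding bases 54 to 114: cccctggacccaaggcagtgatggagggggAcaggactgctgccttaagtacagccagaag
Ccl21a, coding bases 164 to 224: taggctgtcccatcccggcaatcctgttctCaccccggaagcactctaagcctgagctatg
Ccl21b, coding bases 164 to 224: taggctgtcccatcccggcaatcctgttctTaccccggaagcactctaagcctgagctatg
Ccl21b was identical over these 402 bases to Gm21541, which RefSeq names Ccl21d, to Gm13304 and to Gm10591, so a read from the coding sequence cannot separate those 4 models.

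The other copied genes differed by few bases too. Ccl27a and its copy Ccl27b matched at 99.3% of 425 aligned bases, with 3 differences, all in the coding sequence. The window with G294A and A340C, counted from the first coding base of the Ccl27a model, is shown with those bases in capitals.
Ccl27a: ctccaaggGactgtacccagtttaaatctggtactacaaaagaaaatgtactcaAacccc
Ccl27b: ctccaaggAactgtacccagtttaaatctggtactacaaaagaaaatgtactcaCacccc
Il11ra1 and its copy Il11ra2 differed at 13 of 1299 aligned bases. A window of coding bases 645 to 704 holds T654C and G699A.
Il11ra1: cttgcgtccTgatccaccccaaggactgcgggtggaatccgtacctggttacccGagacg
Il11ra2: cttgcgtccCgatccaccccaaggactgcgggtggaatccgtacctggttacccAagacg
Ccl19 and the transcribed pseudogene Gm2564 differed at 8 of 707 aligned bases, of which 1 lies in the coding sequence. That difference, T2C, falls in the start codon.
Ccl19, coding bases 1 to 60: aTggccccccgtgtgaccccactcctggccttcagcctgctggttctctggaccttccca
Gm2564, bases 1 to 60: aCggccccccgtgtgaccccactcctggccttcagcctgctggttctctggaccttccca

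The likeness extends upstream of the Ccl21 genes. The RefSeq promoter windows (GRCm38.p6, 250 bases before to 50 after the start) of Ccl21a at chr4:42773942-42774241 on the minus strand and of Ccl21d at chr4:41903363-41903662 on the plus strand matched at 297 of 301 aligned positions, or 98.7%. Capitals mark the bases that differ or have no partner. These windows are shown because the rows of both genes were filled in the same IAT libraries. The Ccl21d row (Gm21541) held the same values as Ccl21c, Gm13304 and Gm10591 in all 24 libraries. Its counts therefore do not show that Ccl21d itself was expressed.
Ccl21a promoter: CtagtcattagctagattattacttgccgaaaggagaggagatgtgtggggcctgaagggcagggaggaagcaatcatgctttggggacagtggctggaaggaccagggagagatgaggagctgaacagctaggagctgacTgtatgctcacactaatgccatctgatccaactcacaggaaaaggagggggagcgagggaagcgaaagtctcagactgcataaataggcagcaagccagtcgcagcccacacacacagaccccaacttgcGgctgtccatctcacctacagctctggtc
Ccl21d promoter: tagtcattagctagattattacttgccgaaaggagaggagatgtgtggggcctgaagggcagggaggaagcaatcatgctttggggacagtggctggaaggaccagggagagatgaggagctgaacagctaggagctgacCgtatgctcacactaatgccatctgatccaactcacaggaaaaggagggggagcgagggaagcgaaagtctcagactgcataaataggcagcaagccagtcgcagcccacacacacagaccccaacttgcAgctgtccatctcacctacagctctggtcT
The RefSeq window of Ccl21b matched that of Ccl21a at 50.2% only. Its annotated start lies far upstream, in a model that spans 83706 bases (chromosome 4, 42173120 to 42256825).

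On GRCm38.p6, 7 of the 9 genes have a place on the ordered chromosome 4, in a stretch of 1012 kb. Il11ra1 (41760443 to 41769473) and Ccl27a (41769467 to 41774225) open it and share their end bases. Gm29804 (41890443 to 41893163), a transcribed pseudogene, and LOC101056144 (41893448 to 41895399), which RefSeq names Gm13302 and lists as a pseudogene, follow side by side. Ccl21b comes next, and Ccl19 (42754525 to 42756365) and Ccl21a (42772860 to 42773991) close the stretch. LOC100041599 and LOC100041593, both listed as protein coding, are on parts of chromosome 4 without a place in the order.

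Library totals ran from 12327459 to 18257788 expected counts. The targeted gene Prxl2a stood at 4.19% of its WT mean in KO IAT, 4.57% in BAT, 1.98% in liver and 5.54% in brain. Its log2 difference of KO over WT was -4.58 in IAT (SE 0.41, edgeR adjusted p = 0.0912) and -4.45 to -4.17 in BAT and brain, with -5.65 in liver (largest of these 3 edgeR adjusted p = 0.000131). The markers of each labelled tissue were present in its libraries. In IAT, however, KO replicates 1 and 3 carried lymph node transcripts: 21 lymphocyte markers summed to 3370 and 1720 CPM (counts scaled to library size, normalised within each tissue by TMM) there, against 12.3 CPM in KO replicate 2 and 24 to 38.5 CPM in the WT libraries. Skeletal muscle markers summed to 5.47 to 42.6 CPM in the KO libraries of IAT, and to 905 and 3360 CPM in WT replicates 1 and 2 and 5.74 CPM in WT replicate 3. Several IAT values are therefore also given for KO replicate 2 alone.

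The 9 genes showed several patterns. Gm29804, LOC100041599 and LOC101056144 had every KO library below every WT library in all 4 tissues, LOC100041593 in BAT, brain and liver, and Ccl21b in brain. Ccl21a had every KO library above every WT library in IAT and liver. Ccl19 had overlapping groups in every tissue, and Il11ra1 and Ccl27a had log2 differences between -0.50 and 0.27. Counted over the 9 genes, the KO libraries were all below the WT libraries for 3 in IAT, 4 in BAT, 4 in liver and 5 in brain. Among all genes that passed the count filter this held for 9.65% in IAT, 11.2% in BAT, 11% in liver and 5.98% in brain. The KO libraries were all above the WT libraries for 1 of the 9 genes in IAT and in liver and for 0 in BAT and brain, against 8.8%, 14.4%, 6.53% and 10.6% of the genes that passed in IAT, BAT, brain and liver. The filter kept 6 of the 9 genes in IAT, 5 in BAT, 6 in liver and 7 in brain. Among the genes kept, the KO libraries were all below the WT libraries for 2 in IAT, 2 in BAT, 2 in liver and 5 in brain. They were all above for 1 in IAT and in liver and for 0 in BAT and brain. Since the genes were chosen on this contrast, nothing is read from these shares.

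**Figure D1:**
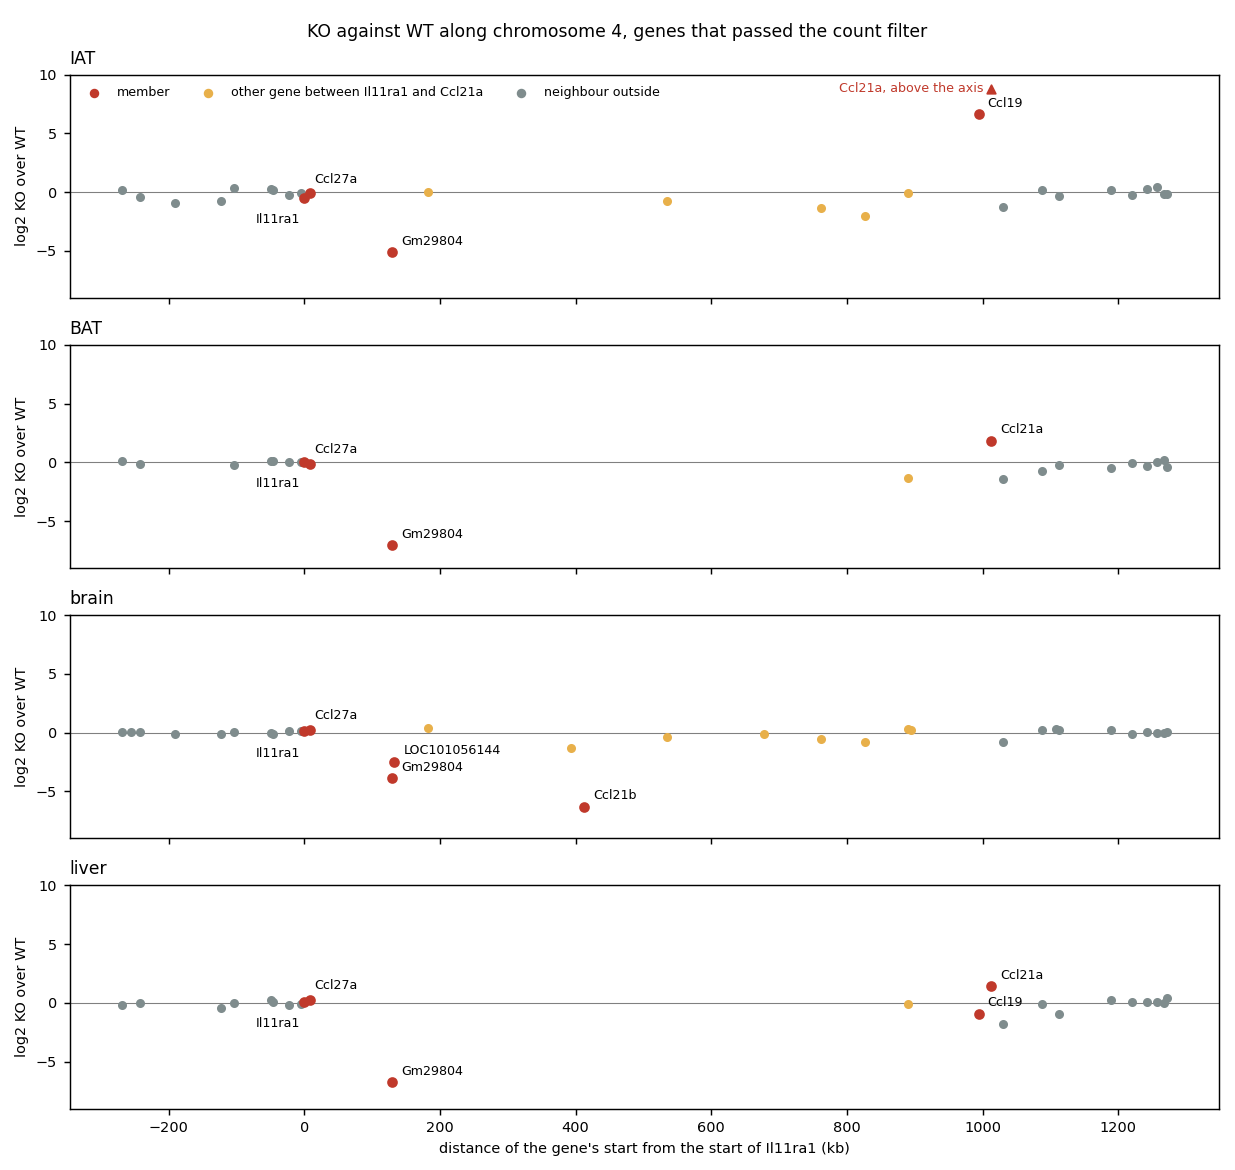
Log2 difference of KO over WT (vertical axis) against the distance of each gene's start from the start of Il11ra1 in kb (horizontal axis), in the 4 tissues, for genes that passed the count filter. Red points are the genes described here, amber points other genes between Il11ra1 and Ccl21a, grey points the neighbours outside; the triangle marks Ccl21a in IAT, above the axis, and Gm29804 lies between -7.06 and -3.91 in all 4 tissues.

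Gm29804, a transcribed pseudogene, was low in KO in every tissue. In brain it had 88.9, 115 and 107 expected counts in the KO libraries, against 1496, 2188 and 1199 in the WT libraries. The groups did not overlap, and the summed counts, scaled to library size, were 15.1-fold lower in KO (95% exact interval 13.5 to 17, counting error only). In liver it had 2, 0 and 2.27 expected counts in KO, against 172, 197 and 109 in WT, a difference of 121-fold (interval 47 to 447). BAT gave 2.2, 0 and 0 expected counts in KO, against 77.9, 139 and 113 in WT, or 164-fold (interval 45 to 1360). In these bulk tissues, fewer cells of a type, less RNA per cell and a different placement of reads among copies cannot be told apart.

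In IAT, Gm29804 had 7.07, 5.8 and 0 expected counts in KO, against 45.3, 136 and 276 in WT. The WT libraries themselves spread widely, yet the lowest WT library was above every KO library. The summed counts were 33.3-fold lower in KO (interval 19.3 to 63.1), and 24.3-fold lower in KO replicate 2 alone, the library without the lymphocyte transcripts. On the log2 scale of the fit the differences were -5.11 in IAT (SE 1.01), -7.06 in BAT (SE 0.61), -3.91 in brain (SE 0.24) and -6.73 in liver (SE 0.44). KO brain kept more of this transcript, at 4.54 TPM ± 0.564 (SD, n = 3), than KO IAT, BAT or liver, which averaged at most 0.117 TPM. TPM is a level scaled to library size that also allows for gene length.

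LOC100041599 followed Gm29804 in WT and was lower still in KO brain. In brain it had 11.4, 6.87 and 3.05 expected counts in KO, against 910, 1510 and 618 in WT. The lowest WT library was far above the highest KO library, and the summed counts were 140-fold lower in KO (interval 91.2 to 226). The other tissues held few reads in KO. IAT had 1.72, 1.83 and 3.35 expected counts in KO, against 35.5, 102 and 228 in WT, a difference of 49.5-fold (interval 23.8 to 124) and of 58.3-fold for KO replicate 2 alone. In BAT the KO libraries had 0, 1.12 and 0 expected counts, against 44.5, 87.0 and 72.8 in WT. Liver had 0, 1.26 and 0 expected counts in KO, against 82.9, 117 and 81 in WT. With 1.1 and 1.3 reads in the KO groups, the folds of 203 in BAT (interval 36 to 8040) and 284 in liver (interval 50.5 to 11300) are known only within wide bounds.

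LOC100041593 and LOC101056144 were at low levels outside the brain. In brain, LOC100041593 had 0, 1.43 and 1.28 expected counts in KO, against 226, 357 and 139 in WT, and its summed counts were 232-fold lower (interval 79.1 to 1130). Its groups overlapped in IAT, with 13.7, 0 and 6.06 expected counts in KO, against 7.53, 6.44 and 28 in WT. There the filled KO libraries were replicates 1 and 3, those with lymph node transcripts. It summed to 1.5 expected counts in KO and 18.3 in WT in BAT, and to 0 in KO and 14.6 in WT in liver, at least 4.94-fold lower against a floor of 3 counts over the KO group.

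LOC101056144 differed less between the genotypes in brain than its neighbour Gm29804. It had 19.1, 33.2 and 27.7 expected counts in KO brain, against 127, 229 and 109 in WT brain, a difference of 5.6-fold (interval 4.41 to 7.19) without overlap. In IAT it had 0, 0 and 2.62 expected counts in KO, against 7.44, 18.2 and 19.4 in WT. All 3 KO libraries of BAT and of liver were at 0, against 6.43, 8.09 and 17.5 expected counts in WT BAT and 15.1, 7.12 and 6.28 in WT liver. These are at least 10.6-fold lower in BAT and at least 9.63-fold lower in liver, against a floor of 3 counts over the KO group.

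**Figure D2:**
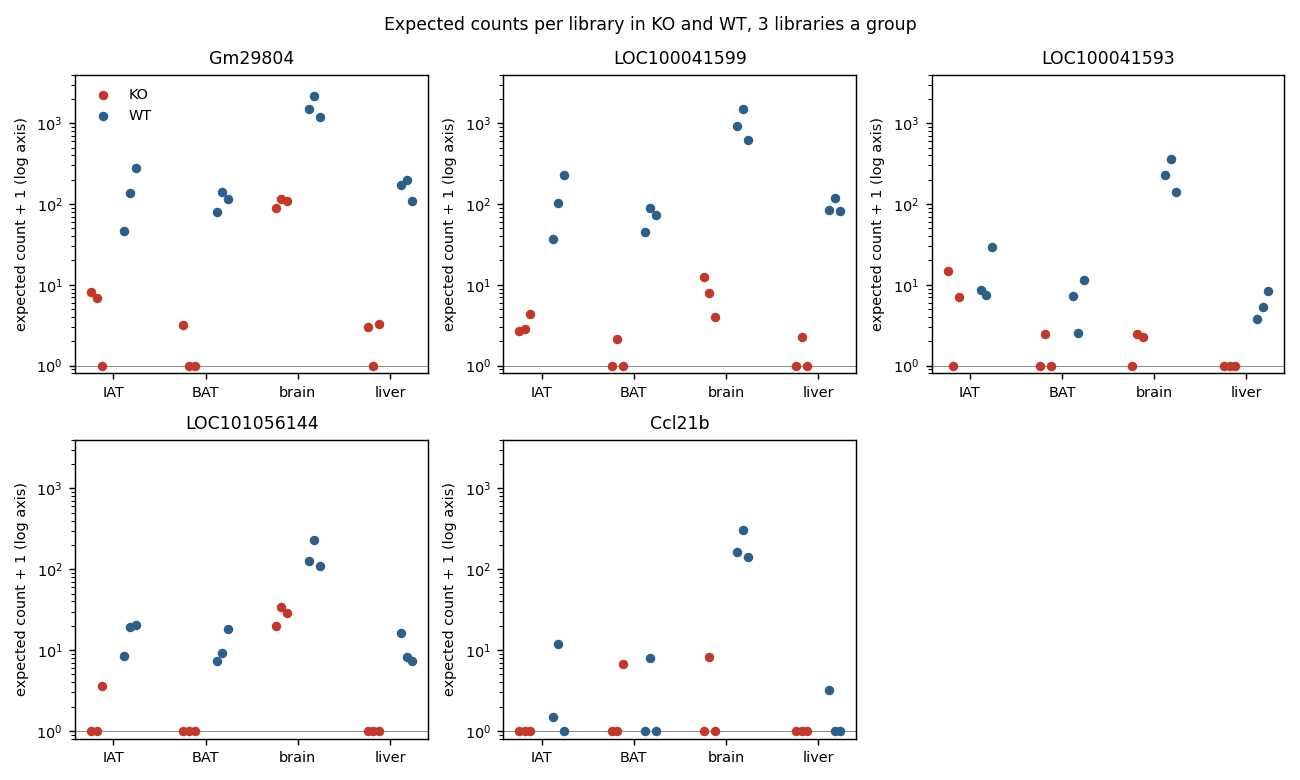
Expected count plus 1 on a log axis for each library of Gm29804, LOC100041599, LOC100041593, LOC101056144 and Ccl21b, KO points left of WT points in each tissue and the grey line marking a count of 0. In brain, every KO library of all 5 genes lies below every WT library, with the highest KO count of Gm29804 at 115 and its lowest WT count at 1199.

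The balance between the low genes differed by genotype. LOC100041599 stood at 0.697 to 1.2 times the TPM of Gm29804 across the 12 WT libraries and at 0.0402 to 0.187 times in the 3 KO libraries of brain. LOC101056144 stood at 0.44 to 0.581 times the TPM of Gm29804 in KO brain and at 0.0717 to 0.326 times across the 12 WT libraries. Both ratios lay outside the WT range in every KO brain library, in opposite directions. In the other tissues the KO counts were too low for a ratio.

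Ccl21b, the leucine type of copy, was found almost only in WT brain. It had 0, 7.23 and 0 expected counts in KO brain, against 162, 310 and 142 in WT brain, and the summed counts were 84.6-fold lower in KO (interval 40.8 to 211). The log2 difference was -6.31 (SE 0.75). Only KO replicate 2 held any reads. Elsewhere Ccl21b was close to absent in both genotypes, with a highest library of 5.72 expected counts in KO and 10.7 in WT. LOC100041593 stood at 0.303 to 0.424 times the TPM of Ccl21b in the WT brain libraries. Which part of the long Ccl21b model the reads came from is not in the table.

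Ccl21a, the serine gene of lymphoid stroma, went the other way in IAT. It had 17604, 86.5 and 8206 expected counts in the KO libraries, and 0, 0 and 0 in the WT libraries. KO replicates 1 and 3, with the lymph node transcripts, exceeded KO replicate 2 by 183 and 87.2 times, yet replicate 2 was also above every WT library. Over the group the level was at least 9120-fold higher in KO, and for KO replicate 2 alone at least 90.4-fold higher, each against a floor of 3 counts over the WT group. A count of 0 in the WT libraries allows a level of up to 0.0583 CPM.

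Lymphocyte markers and some markers of lymph node stroma and high endothelial venules moved with Ccl21a among the IAT libraries. Their part in the result was not tested. Glycam1, a ligand made by high endothelial venules, was at 888, 0.0631 and 426 CPM in KO and at 0 in all 3 WT libraries. In KO replicate 2, lymphocyte markers summed to 12.3 CPM, against 24 to 38.5 CPM in the WT libraries. Ccl21a stood at 5.42 CPM in that library and at 0 in WT. The 12 markers of lymph node stroma and high endothelial venules summed to 372 CPM in KO replicate 2, against 387 to 424 CPM in WT. Enpp2 (229 CPM) and Ltbr (74 CPM) held most of that sum in KO replicate 2. Of the 9 of these markers tested in IAT, 7 had log2 differences above 0 and 2, Ltbr and Pdpn, below. Ltbr was at 42.9, 74 and 58.4 CPM in the KO libraries and 78 to 85.4 CPM in WT. The 10 markers of lymphatic endothelium summed to 192 CPM in KO replicate 2 and to 139 to 646 CPM in WT. Lyve1 held most of the sum in KO replicate 2, at 134 CPM. Mmrn1 (3.66 CPM), Prox1 (0.883 CPM) and Stab2 (1.01 CPM) were above every WT library there. The highest WT libraries of these genes were at 0.519, 0.655 and 0.478 CPM. Pdpn, Nrp2, Sema3d and Foxc2 were below every WT library in KO replicate 2, and the remaining markers lay within the WT range. Of the 9 lymphatic endothelial markers tested in IAT, 5 had log2 differences above 0 and 4 below. Calls by edgeR were 0 of these 9 and 0 of all 14097 genes tested in IAT. An edgeR unadjusted p under 0.05 was found for 5 of the 9, beside 15.8% of all genes. DESeq2 called 3 higher in KO (Mmrn1, Stab2 and Prox1) and 1 lower (Pdpn), beside 7% of all genes called.

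Outside IAT, Ccl21a was a minor transcript. In liver it had 31.1, 22.5 and 54.1 expected counts in KO, against 11.4, 14 and 15.9 in WT. Every KO library was above every WT library, and the ratio of summed counts was 2.6 (interval 1.8 to 3.82), with a log2 difference of 1.42 (SE 0.37). In BAT it had 101, 59 and 27.3 expected counts in KO, against 5.1, 5.99 and 42.6 in WT. WT replicate 3 lay above KO replicate 3, so the groups overlapped, and the log2 difference of 1.85 (SE 0.79) became 3.54 without WT replicate 3. In brain all libraries held at most 4.62 expected counts.

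Summed markers of lymphatic endothelium and of lymphocytes overlapped with WT or lay below it in KO BAT and liver. The 10 lymphatic endothelial markers summed to 73.1 to 95.5 CPM in KO and 88.5 to 107 CPM in WT in BAT, and to 246 to 301 CPM in KO and 262 to 317 CPM in WT in liver. Of those tested, 2 had log2 differences above 0 and 4 below in BAT, and 3 above and 4 below in liver. Nrp2 held most of the BAT sums, at 48.9 to 79.9 CPM, and Prox1 the largest part in liver, at 105 to 175 CPM. Mmrn1, 1 of the 2 above 0 in BAT, was at 4.19, 2.84 and 1.8 CPM in KO BAT. Its WT BAT libraries were at 0.234, 0.313 and 2.74 CPM. For Ccl21a the same libraries were at 8.3, 4.79 and 2.21 CPM in KO and 0.39, 0.469 and 3.36 CPM in WT. Lymphocyte markers in BAT summed to 8.84 to 9.84 CPM in KO and 13.4 to 15.8 CPM in WT, and in liver to 9.71 to 12.3 CPM in KO and 10.6 to 17 CPM in WT. The high endothelial markers Chst4 and Madcam1 were at 0 in all BAT libraries, and Glycam1 was at 0 in all liver libraries. In BAT, Fut7 reached 0.312 CPM in WT replicate 1 and Glycam1 0.082 CPM in KO replicate 3. Chst4 was at 0.169 to 0.285 CPM in KO liver and 0.635 to 0.825 CPM in WT liver (log2 difference -1.63, edgeR adjusted p = 0.0957). Madcam1 and Fut7 reached at most 0.0574 CPM in liver. The part of lymphatic endothelium in the values of Ccl21a was not tested.

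Ccl19, the other CCR7 ligand, was high in KO replicates 1 and 3 of IAT, the libraries with lymph node transcripts, and nowhere else. In IAT it had 2509, 6.95 and 1190 expected counts in KO, against 2.38, 11.8 and 20.6 in WT. KO replicate 2 lay inside the WT range, and its ratio to the WT libraries was 0.627 (interval 0.235 to 1.43). The log2 difference of 6.63 (SE 1.84) over all libraries became -0.65 without KO replicates 1 and 3. In liver Ccl19 had 3.21, 14.6 and 3.03 expected counts in KO, against 10.4, 17.2 and 13.8 in WT, with overlap and a log2 difference of -0.92 (SE 0.58). BAT and brain libraries held at most 8.33 expected counts of it.

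**Figure D3:**
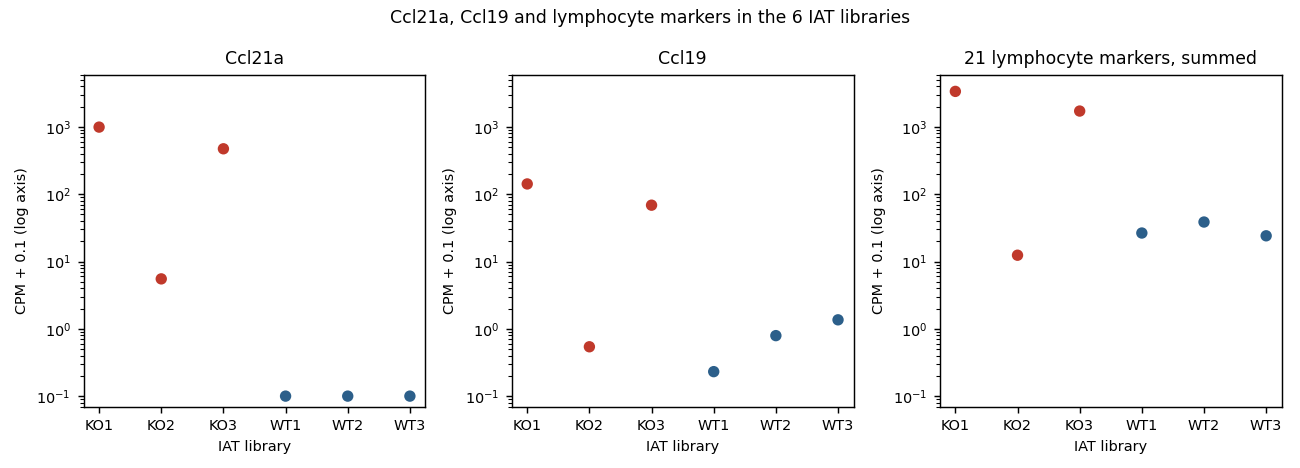
Level in CPM plus 0.1, on a log axis, of Ccl21a, of Ccl19 and of 21 lymphocyte markers summed, in the 3 KO libraries (red) and the 3 WT libraries (blue) of IAT. KO replicate 2 stands within the range of the WT libraries for Ccl19. It stands below them for the lymphocyte markers, at 12.3 CPM against 24 to 38.5 CPM, and above them for Ccl21a, at 5.42 CPM against 0.

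Because reads can be split between copies, counts were also summed over each family. The Ccl21 family has 6 rows: Ccl21a, Ccl21b, Ccl21c, Gm21541, Gm13304 and Gm10591. The last 4 hold the same values as each other in all 24 libraries. LOC100041593, which spans 1131 bases as those 4 do, is not in this sum. Gm29804, LOC100041599 and LOC101056144 are in no family sum either, and the sequences of these genes were not compared. Ccl21c, Gm21541, Gm13304 and Gm10591 each had 248.4 expected counts over the KO libraries of IAT and 0 over the WT libraries. The family sum averaged 509 CPM ± 511 in KO IAT and 0.211 CPM ± 0.366 in WT IAT (SD, n = 3 each), and every KO library was above every WT library. In brain it averaged 0.272 CPM ± 0.363 in KO and 12.5 CPM ± 5.1 in WT, with every KO library below. In liver it averaged 2.73 CPM ± 1.11 in KO and 1.16 CPM ± 0.358 in WT, with every KO library above. BAT averaged 6.9 CPM ± 3.97 in KO and 2.01 CPM ± 2.04 in WT, with overlap. Ccl21a made up 70.3% to 96.5% of the sum in KO IAT, and 0.187% to 2.76% in WT brain.

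The Ccl19 family sum, over Ccl19 and 3 copies, gave a log2 difference of 4.07 in IAT with overlap. Every KO library was below every WT library in brain, at 0.961 CPM ± 0.349 in KO and 1.7 CPM ± 0.185 in WT (SD, n = 3 each), and in liver, at 0.705 CPM ± 0.449 in KO and 1.5 CPM ± 0.0639 in WT. Of the copies, Gm12407 summed to 183.9 expected counts in KO IAT and 19 in WT IAT, with 136, 0 and 48.2 counts in the KO libraries, so replicates 1 and 3 held all of its KO counts. Gm2564 summed to 54.4 expected counts in KO IAT and 17.2 in WT IAT. Gm2023, on an unplaced part of chromosome 4, had 1.1, 4.29 and 2.23 expected counts in KO liver, against 8.83, 9.76 and 9.52 in WT liver.

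Il11ra1, the receptor for interleukin 11, had near-equal levels in KO and WT outside IAT. It averaged 43.6 CPM ± 2.82 in KO BAT and 43.3 CPM ± 3.21 in WT BAT (SD, n = 3 each), a log2 difference of 0.01 (SE 0.09). Brain averaged 23.7 CPM ± 2.72 in KO and 22.2 CPM ± 4.48 in WT, and liver 30.9 CPM ± 3.44 in KO and 29.3 CPM ± 2.32 in WT. The groups overlapped in both. In IAT it had 80.4, 120 and 90.9 CPM in KO, against 94.4, 133 and 185 CPM in WT, with overlap and a log2 difference of -0.50 (SE 0.28). The 2 KO libraries with lymph node transcripts were the lowest of the 6. Adipocyte markers were also lowest in KO replicate 1, at 6860 CPM summed. KO replicate 3, at 13400 CPM, was within the WT range of 12500 to 14800 CPM, and KO replicate 2 was at 22200 CPM. For KO replicate 2 alone the ratio to WT was 0.874 (interval 0.83 to 0.919, counting error only). The part of cell content in this difference was not tested.

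Ccl27a, the skin chemokine whose gene overlaps Il11ra1, was likewise close between the genotypes. In brain, where it was highest, it had 37.8, 53.8 and 53.8 CPM in KO, against 34.4, 62.1 and 31.4 CPM in WT, a log2 difference of 0.19 (SE 0.27). The log2 differences were -0.12 in IAT (SE 0.28), -0.17 in BAT (SE 0.24) and 0.27 in liver (SE 0.17). The groups overlapped in all 4 tissues on the CPM scale. On the TPM scale every KO library of liver was above every WT library, at 18.7 to 22.8 TPM in KO and 15.8 to 18.6 TPM in WT. Reads from the bases shared by Il11ra1 and Ccl27a cannot be assigned to either gene without strand, and the sources used here do not give the strand setting.

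**Figure D4:**
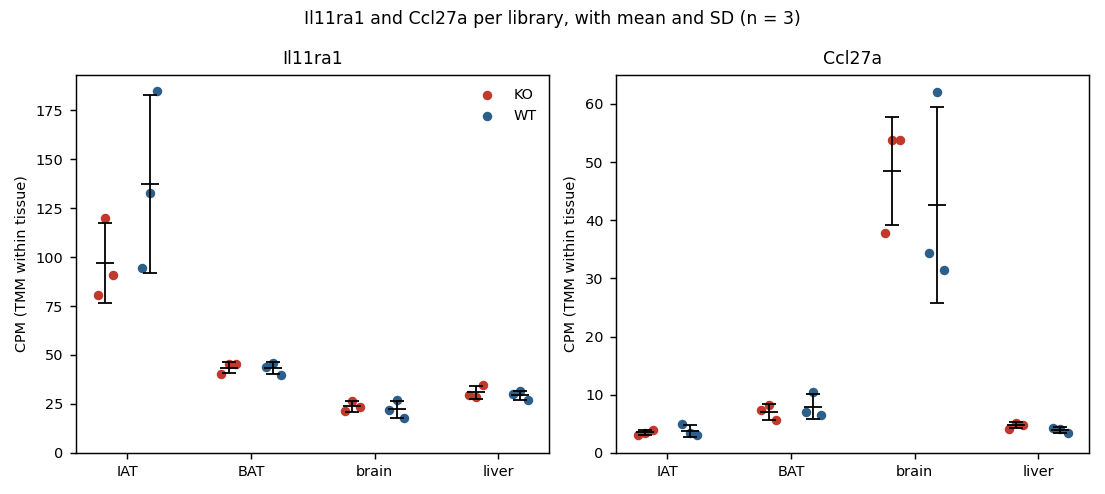
Level of Il11ra1 and Ccl27a in CPM (TMM within each tissue) per library, KO left of WT, with mean and SD (n = 3) as black lines. In all 4 tissues the KO and WT points overlap for both genes, with Ccl27a in brain at 48.5 CPM in KO and 42.6 CPM in WT on average.

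The copies of these genes were less even. Ccl27b, the annotated partner of Ccl27a, was below WT in every KO library of BAT, with 96, 41.3 and 30.5 expected counts in KO, against 107, 221 and 122 in WT. Its log2 difference there was -1.36 (SE 0.45) and did not pass with edgeR (adjusted p = 0.193), while DESeq2 called it (log2 difference -1.37, DESeq2 adjusted p = 0.0297). In brain it had 1040, 957 and 1460 expected counts in KO, against 851, 1317 and 707 in WT, with overlap. Gm13306, whose transcript matches Ccl27b at all 418 aligned bases, summed to 216.1 expected counts in KO brain and 573.3 in WT brain (log2 difference -1.34, SE 0.68, edgeR adjusted p = 0.754). Summed over Ccl27a, Ccl27b and their copies, the family averaged 11.6 CPM ± 3.62 in KO BAT and 19.7 CPM ± 6.93 in WT BAT (SD, n = 3 each), with every KO library below every WT library, and its log2 difference was between -0.17 and 0.17 in the other 3 tissues.

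Il11ra1 made up 93.3% to 99.9% of the reads of its family in KO libraries and 95.4% to 99.7% in WT libraries. Il11ra2 summed to 7.2 expected counts in KO BAT and 19.6 in WT BAT, without overlap. In IAT it summed to 15.2 expected counts in KO and 25.1 in WT, and in brain to 53.3 in KO and 49.4 in WT. Gm13305, a further copy, summed to at most 1 expected count in KO and 6.3 in WT in any tissue. Of the remaining copies, Gm21586 summed to 58.3 expected counts in KO brain and 67.5 in WT brain, Gm21953 to 8.6 in KO brain and 20.8 in WT brain, and Gm20878 to 9.3 in KO brain and 0 in WT brain.

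The level of each gene across tissues was compared among the 12 WT libraries, a contrast that did not choose the genes. The edgeR F-test over the 4 tissues called 96.1% of the 15810 genes tested, so a call there sets no gene apart. Tests are given for Il11ra1, Ccl27a, Gm29804 and LOC100041599, which passed the count filter in each tissue's own fit. The other 5 genes failed that filter in at least 1 tissue, so those that entered the WT fit through 1 high tissue had to differ, and their levels are given as a description. Tissues may share mice, since 3 mice per genotype are stated, and nothing in the labels ties libraries to mice.

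Brain was the highest tissue for 6 of the 9 genes. Ccl27a averaged 271 TPM ± 98.1 in brain and 35.4 TPM ± 7.87 in BAT (SD, n = 3 each), a log2 difference of 2.01 (SE 0.29, edgeR adjusted p = 5.62e-05). Below brain the order of Ccl27a depends on the scale. BAT, at 29.8, 44.4 and 32 TPM, did not overlap with liver, at 16.8, 18.6 and 15.8 TPM, but the TMM-scaled fit gave a log2 difference of 0.23 (SE 0.3, edgeR adjusted p = 0.526). Liver and IAT had near-equal means, at 17 TPM ± 1.44 in liver and 16.7 TPM ± 5.06 in IAT, but the fit put liver 1.18 above IAT (SE 0.31, edgeR adjusted p = 0.00557). Ccl21b averaged 54.8 TPM ± 22.4 in brain and 0.607 TPM ± 0.982 in IAT, the highest of the other tissues.

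The 4 unnamed or pseudogene models shared this order of tissues at its top. Gm29804 averaged 68 TPM ± 18.7 in WT brain and 3.97 TPM ± 2.95 in WT IAT, 3.34 higher in brain (SE 0.49, edgeR adjusted p = 5.98e-05). LOC100041599 averaged 61.1 TPM ± 25.2 in brain and 4.59 TPM ± 3.6 in IAT (log2 difference 2.98, SE 0.52, edgeR adjusted p = 0.000258). On the scale of the fit, the smallest lead of brain was over liver for both genes. It was 2.26 for Gm29804 (edgeR adjusted p = 0.000857) and 2.34 for LOC100041599 (edgeR adjusted p = 0.00133). Below brain, no neighbouring tissues of these 2 genes differed beyond their spread (edgeR adjusted p of 0.0638 to 0.297). LOC100041593 averaged 19.8 TPM ± 8.38 in brain and 0.72 TPM ± 0.608 in IAT. For LOC101056144 the means were 12.9 TPM ± 4.9 in brain and 0.783 TPM ± 0.317 in IAT.

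Il11ra1 was highest in IAT, at 136 TPM ± 43.8, against 40.4 TPM ± 2.73 in BAT (log2 difference 1.33, SE 0.22, edgeR adjusted p = 0.000374). BAT, at 41.5, 42.3 and 37.2 TPM, overlapped with brain, at 35.2, 41.8 and 28.7 TPM, while the TMM-scaled fit put BAT 1.38 above brain (SE 0.22, edgeR adjusted p = 0.000135). Liver averaged 28.4 TPM ± 2.82, below the 35.2 TPM ± 6.52 of brain, but the same fit put brain 1.61 below liver (SE 0.22, edgeR adjusted p = 3.58e-05). The order of BAT, brain and liver therefore depends on the scale.

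Ccl21a and Ccl19 were low in every WT tissue. Ccl21a averaged 3.5 TPM ± 4.23 in BAT, 1.98 TPM ± 0.411 in liver, 0.64 TPM ± 0.538 in brain and 0 in IAT. BAT WT replicate 3 alone reached 8.39 TPM, and the other 2 BAT libraries, at 0.98 and 1.14 TPM, lay below the 3 liver libraries. The log2 difference of BAT over liver was 0.09 (SE 0.78) with all libraries and -1.60 without that one. Ccl19 averaged 2.72 TPM ± 0.681 in liver, 2.4 TPM ± 1.84 in IAT, 1.84 TPM ± 1.21 in brain and 0.71 TPM ± 1.01 in BAT, and each tissue's libraries overlapped with those of the next in this order.

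**Figure D5:**
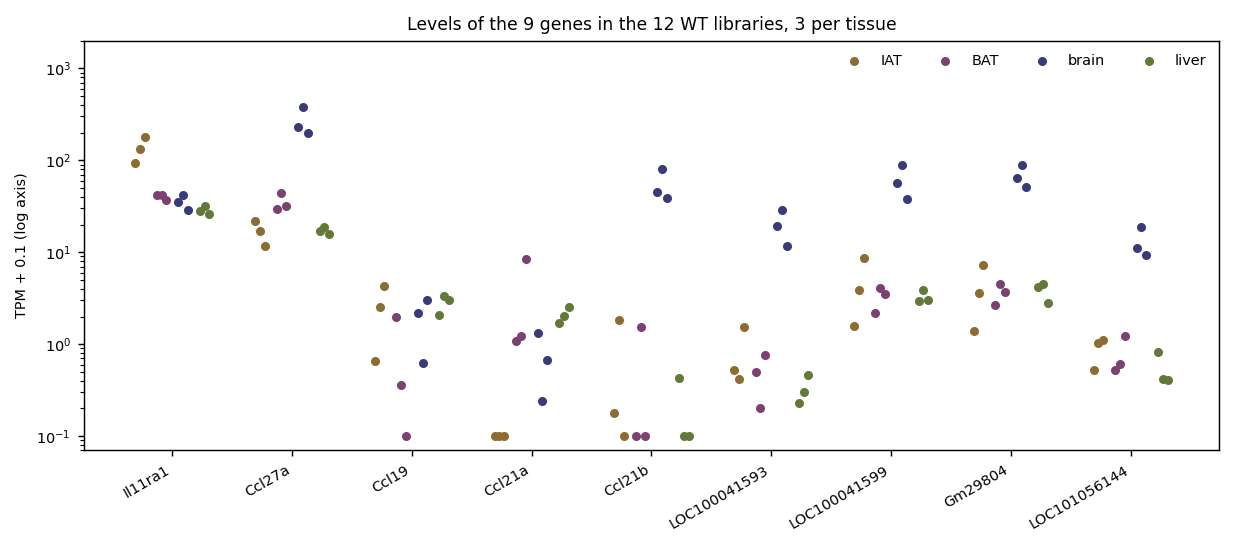
Level in TPM plus 0.1, on a log axis, of the 9 genes in the 12 WT libraries, 3 points per tissue. Brain points stand above those of the other tissues for Ccl27a and the 5 genes from Ccl21b to the right, while Il11ra1 is highest in IAT at 136 TPM on average.

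Within WT brain the same library was highest for several genes. WT replicate 2 was the highest WT library for all 7 of the genes that passed the filter in brain, and it was the highest for 34.6% of the 14385 genes tested there. Gm29804 was at 64.6, 88.1 and 51.3 TPM and Ccl21b at 45.5, 80.4 and 38.6 TPM in WT replicates 1, 2 and 3. The genes share the library, so this is not 7 independent observations.

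No gene on a list of chemokine receptors, among them those of CCL21, CCL19 and CCL27, was called by edgeR in any tissue. In IAT edgeR called 0 of all 14097 genes tested, so the count there is not particular to the receptors. Of the 6 genes on a list with Ccr7, Ccr10, Ackr2, Ackr4, Cxcr3 and Ccrl2, edgeR tested 6 in IAT, 4 in BAT, 3 in liver and 2 in brain, and called 0. In IAT 2 had an unadjusted p under 0.05, and in the other tissues 0, and DESeq2 called 1, Ccr7 in IAT. Among all genes tested by edgeR, an unadjusted p under 0.05 was found for 15.8% in IAT, 18.5% in BAT, 16.1% in liver and 6.58% in brain. Among all genes with a DESeq2 adjusted p, DESeq2 called 7% in IAT, 4.12% in BAT, 3.26% in liver and 0.405% in brain. Ccr7, the receptor for CCL21 and CCL19, averaged 76.5 CPM ± 76 in KO IAT and 1.46 CPM ± 0.66 in WT IAT (SD, n = 3 each), a log2 difference of 5.72 (SE 1.73, edgeR adjusted p = 0.252). Its libraries were at 152, 0.315 and 76.8 CPM in KO and 0.777 to 2.1 CPM in WT, so the libraries with lymph node transcripts carried it. Ccr10, the CCL27 receptor, was at 2.45 CPM ± 0.822 in KO IAT and 1.2 CPM ± 0.339 in WT IAT (log2 difference 1.02, SE 0.38, edgeR adjusted p = 0.288). Ackr2, a decoy receptor of inflammatory chemokines, was at 9.78 CPM ± 3.55 in KO IAT and 16.9 CPM ± 4.88 in WT IAT (edgeR adjusted p = 0.324). The median log2 difference of the list was 0.64 in IAT, -0.38 in BAT, -0.37 in liver and 0.23 in brain, beside 0.02, -0.01, 0 and 0 for all genes tested.

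Genes of interleukin 11 and gp130 signalling, the pathway downstream of Il11ra1, were not called by edgeR either. Of 23 listed genes, 21 were tested in IAT, 17 in BAT, 17 in liver and 18 in brain, and edgeR called 0. An unadjusted p under 0.05 was found for 3 in IAT, 5 in BAT, 4 in liver and 0 in brain. The share of all genes with such a p was 15.8% in IAT, 18.5% in BAT, 16.1% in liver and 6.58% in brain. DESeq2 called 2 higher in KO IAT, 1 higher and 1 lower in KO BAT, 0 in brain and 1 higher in KO liver. Ptpn11, a phosphatase of the pathway, came closest of the abundant genes named here, with 259 CPM ± 39.5 in KO BAT and 159 CPM ± 11.6 in WT BAT (SD, n = 3 each, log2 difference 0.71, SE 0.12, edgeR adjusted p = 0.0622). Lifr, the receptor for leukaemia inhibitory factor, was at 377 CPM ± 45.5 in KO liver and 279 CPM ± 38.6 in WT liver (edgeR adjusted p = 0.152). Jak1, a kinase of the pathway, had log2 differences of -0.08 to 0.50 over the 4 tissues. The list medians were 0.12 in IAT, -0.2 in BAT, -0.03 in liver and 0.05 in brain.

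Chemokines from other loci were also at 0 calls by edgeR, of 21 tested in IAT, 18 in BAT, 14 in liver and 8 in brain. An unadjusted p under 0.05 was found for 11 in IAT, 6 in BAT, 6 in liver and 2 in brain, and DESeq2 called 2 higher and 7 lower in KO IAT and 1 lower in KO liver. Over all genes tested, such a p was found for 15.8% in IAT, 18.5% in BAT, 16.1% in liver and 6.58% in brain. DESeq2 called 7% of all genes in IAT and 3.26% in liver. The log2 differences were below 0 for 13 of 21 in IAT, 18 of 18 in BAT, 10 of 14 in liver and 5 of 8 in brain, with medians of -0.45 in IAT, -0.58 in BAT, -0.42 in liver and -0.03 in brain. Ccl6 and Ccl9, chemokines of myeloid cells, were at 152 CPM ± 42.8 in KO IAT and 634 CPM ± 477 in WT IAT, and at 94 CPM ± 22.3 in KO IAT and 379 CPM ± 286 in WT IAT (SD, n = 3 each, edgeR adjusted p = 0.252 and 0.249). Cxcl12, a chemokine of stroma, had log2 differences of -0.2 to 0.47 over the 4 tissues, and Cx3cl1, which is abundant in neurons, was at 687 CPM ± 80.8 in KO brain and 656 CPM ± 74.6 in WT brain.

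Over all lists and neighbours together, edgeR called 0 of 122 genes tested in IAT, 0 of 92 in BAT, 0 of 82 in brain and 1 of 90 in liver. Among all genes tested it called 0% in IAT, 0.54% in BAT, 1.11% in liver and 0.0487% in brain. The counts of list genes at an unadjusted p under 0.05 were 52, 22, 5 and 21, and DESeq2 called 42, 5, 1 and 4 in IAT, BAT, brain and liver. In the same order, 15.8%, 18.5%, 6.58% and 16.1% of all genes had such an unadjusted p. DESeq2 called 7%, 4.12%, 0.405% and 3.26% of all genes. In IAT, all 19 lymphocyte markers tested were among the DESeq2 calls, higher in KO, with the transcripts in KO replicates 1 and 3.

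The neighbours on the chromosome had median differences near 0. Of the 10 genes on either side of Il11ra1 and Ccl21a, 18 were tested in IAT, 16 in BAT, 17 in liver and 20 in brain, with median log2 differences of -0.12 in IAT, -0.08 in BAT, -0.04 in liver and 0.05 in brain. Single neighbours ranged from -1.29 to 0.4 in IAT, -1.43 to 0.17 in BAT, -1.8 to 0.44 in liver and -0.82 to 0.27 in brain. Before Il11ra1 lie Galt, an enzyme of galactose use, and Dctn3, a dynactin subunit, and their log2 differences ran from -0.13 to 0.16 over the 4 tissues. After Ccl21a come LOC100861727, Fam205a1 and Fam205c. Fam205a1 ranged from -0.70 to 0.21, and Fam205c was tested in brain alone (log2 difference 0.27).

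LOC100861727, which RefSeq names Gm12394 and lists as a transcribed pseudogene (42790214 to 42804092), was the neighbour called. In liver it had 17, 19 and 21.4 expected counts in KO, against 60.1, 85.7 and 59 in WT, and it fell by 1.80 in log2 terms (SE 0.22, edgeR adjusted p = 0.00599). KO libraries were all below WT libraries in BAT too, with 26, 21.7 and 22 expected counts in KO and 53, 68 and 77.4 in WT (log2 difference -1.43, SE 0.23, edgeR adjusted p = 0.0505). In brain it had 436, 508 and 487 expected counts in KO, against 788, 1149 and 704 in WT (log2 difference -0.82, SE 0.17, edgeR adjusted p = 0.512). IAT overlapped, with 89.3, 17 and 54.8 expected counts in KO and 41.3, 140 and 201 in WT. The liver call was lost in a fit of all 24 libraries. DESeq2 called it in BAT (adjusted p = 0.00219) and brain (adjusted p = 0.0084) as well.

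Between Il11ra1 and Ccl21a the table has 25 rows, of which 7 are among the 9 genes. Of the other rows, LOC108169010 had every KO library below every WT library in BAT, brain and liver, with sums of 1 expected count in KO and 12.4 in WT in BAT, 168.3 in KO and 302.6 in WT in brain, and 0 in KO and 21.7 in WT in liver. Its log2 difference in brain was -0.78 (edgeR adjusted p = 0.737). Fam205a2 summed to 46.8 expected counts in KO IAT and 120.5 in WT IAT, without overlap (log2 difference -1.39, edgeR adjusted p = 0.214). Fam205a4, between Gm29804 and Ccl21b, summed to 545.8 expected counts in KO brain and 428.4 in WT brain, with overlap, and to 12.9 in KO liver and 36.8 in WT liver, without overlap.

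The genes whose pattern over libraries was most like those of Ccl21a, Il11ra1 and Ccl27a were listed by Pearson's r of log2 CPM among 11027 genes, as a description. With each tissue's mean removed, over 24 libraries, Ccl21a was most like Klhl3 and F8 (r = 0.926 each), Adal (0.923), Map4k2 (0.913) and Slc20a1 (0.905). The libraries included KO replicates 1 and 3 of IAT, and no value without them was computed. Il11ra1 was most like Stard8 (0.885), Cd34 (0.849), Chmp4b (0.846), Psma4 (0.845) and Anxa3 (0.844). Ccl27a reached 0.689 with Pip4k2c, 0.687 with Fbxl15, 0.686 with Nfic, 0.671 with Btbd10 and 0.669 with Wdr62. Over the 12 WT libraries, where tissue differences dominate, Il11ra1 was most like Dok1 and Rpl12 (0.989 each), H2-M3 (0.987), Fes and Rps3a1 (0.986 each). Ccl27a was most like Nkiras1 (0.988), R3hdm2 (0.981), Dlg1 (0.977), Zfyve9 (0.975) and Myo6 (0.973), and Ccl21a was most like Mreg (0.893), Sco2 (0.888), Gk (0.873), Pank1 (0.862) and Ikbkg (0.859).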

How the data were processed

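The authors deposited 1 table of 19015 genes with expected counts per library, not normalised, per the file headers. It also holds TPM values that the authors scaled within each library, per the file headers. The submitters' processing notes name the build GRCm38.p6 and the tools RSEM 1.3.1, Bowtie2 2.3.4.3 and DESeq2 1.4.5. The sources used here do not give the annotation, strand setting or filters. How reads were split among near-identical copies decides the value of each copy, so families were also summed. A further 48 per-sample columns were not used.

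After rounding the expected counts, each tissue's 6 libraries were fitted with edgeR 4.0.16 in R 4.3.3 (TMM, filterByExpr, quasi-likelihood F-test, Benjamini-Hochberg over all genes tested, called under 0.05), and the 12 WT libraries in 1 fit across tissues. Folds compare summed counts scaled to library size, with 95% exact (Clopper-Pearson) intervals, and against a group at 0 a floor of 3 counts over the group. Intervals and floors cover counting error only. The members and lists were chosen with earlier results of these data known. Named genes were the 9 members, their copies, up to 4 most abundant or called genes of each pathway list, the nearest 3 neighbours on either side and those called, and the 5 genes most alike in pattern. Some genes that this rule names are not reported here. Of the marker lists, those that moved with a result are named. Of 19015 gene identifiers, 18958 were found in the RefSeq table. Replicates are separate mice per the labels' design text, and no pair of libraries agreed within sampling noise. Alternatives were RLE factors, no filter, DESeq2 1.42.0, a replicate block, 1 fit of all 24 libraries, TPM with limma 3.58.1, family sums and leaving out libraries.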

Additional observations from a re-analysis of the deposited data

Results flagged for a closer look

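The summed Ccl21 family differed in direction between tissues. Its log2 difference of KO over WT was 11.23 in IAT, where every KO library was above every WT library, -5.52 in brain, where every KO library was below, and 1.23 in liver, where every KO library was above. The difference between the tissues was not tested. Ccl21a made up most of the sum in KO IAT, at 70.3% to 96.5%, and Ccl21b nearly all of it in WT brain, where Ccl21a held 0.187% to 2.76%. Lymphocyte markers moved with the IAT value in KO replicates 1 and 3, and their part in it was not tested. The family sum was 7.69 CPM in KO replicate 2, where lymphocyte markers summed to 12.3 CPM. It was at most 0.634 CPM in the WT libraries. No test for an outlying library was run on groups of 3.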

How the results depend on the processing

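The values of the 9 genes in KO over WT gave 284 alternative values, of which 256 moved by less than 1 SD of the replicates and 28 moved further. The difference of Ccl19 in IAT, 6.63 over all libraries, became -0.65 without KO replicates 1 and 3. The WT tissue contrasts gave 162, of which 3 reversed, all for Ccl21a in BAT over liver: the log2 difference of 0.09 became -0.30 with a replicate block, -1.60 without BAT WT replicate 3 and -0.03 without liver WT replicate 1, within -1.60 to 0.53 over the libraries left out. Counts of genes called over the whole table moved more. In IAT, edgeR called 0 genes, DESeq2 987 and the fit of all 24 libraries 2573, and leaving out 1 library gave 0 to 1760, the highest without KO replicate 2. In BAT the 68 genes became 467 with DESeq2, 1 with a replicate block, 173 in the fit of all 24 libraries and 2 to 94 without 1 library, with 2 without WT replicate 3. In brain the 7 genes became 56 with DESeq2, 4 with a replicate block and 1 to 9 without 1 library. In liver the 137 genes became 218 with no filter, 402 with DESeq2, 228 with a replicate block and 58 to 103 without 1 library. Of the lists and neighbours, DESeq2 called 42 in IAT, 5 in BAT, 4 in liver and 1 in brain, and the fit of all 24 libraries called 60 in IAT, 1 in BAT and 0 in liver. For liver, where edgeR called 1, no filter and the replicate block gave 2 each. Without 1 library these counts ran from 0 to 51 in IAT, 0 to 1 in BAT and 1 to 2 in liver. The cause was not tested. Samples with the same replicate number correlated at -0.33 to 0.34 between KO and WT and at -0.18 to 0.24 between WT tissues, in their deviations from the group means, so the number was not taken as a pairing. Folds against KO groups with 1 to 3 reads are limited by depth.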
